A study of Mus musculus with 8 samples.

Results

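The proteasome genes described here are the genes whose symbol in the array's platform annotation begins with Psma, Psmb, Psmc, Psmd, Psme, Psmf or Psmg on a probe set that names 1 gene. The rule found 49 genes, read by 103 probe sets, of the 18193 genes that have such a probe set. Of these 49, 22 had 1 probe set and 27 had several, and then the brightest one, by mean log2 signal over the 8 arrays, stood for the gene. By their known roles, 19 genes encode subunits of the core particle, 9 of the base, 8 of the lid, 4 activators or an inhibitor, and 7 assembly chaperones. The other 2, Psmc3ip and Psme3ip1, match by name and encode partners of proteasome proteins, not subunits. Total RNA from 4 samples of Brg1 mutant and 4 samples of wild type mouse embryos at the 2-cell stage, 20 embryos in each sample, was hybridised to Affymetrix arrays. BRG1, encoded by Smarca4, is the ATPase of a chromatin remodelling complex, and the series title names its maternal form and the activation of the zygotic genome as the question. The labels used here give no allele, deleter line, strain or age of the females for either group. Since every sample pooled 20 embryos, differences between embryos cannot be seen.

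The proteasome degrades proteins that carry a ubiquitin chain. Its core particle is a barrel of alpha and beta rings, with the protease sites on 3 of the beta subunits, Psmb5, Psmb6 and Psmb7, inside. The regulatory particle on the end of the barrel has a base, whose ATPases unfold the substrate, and a lid, whose subunit Psmd14 removes the ubiquitin. Other caps (the Psme proteins) open the barrel without ATP, and dedicated chaperones build the rings and the base. At the transition from egg to embryo, maternal proteins are cleared while the embryo's own genes come on, and the proteasome is known to take part in that clearance.

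The values are MAS5 signals, 1 per probe set on a linear scale, in which each array has the same trimmed mean. Smarca4 checked the labels: its brighter probe set had signals of 387.5, 200.9, 273.0 and 291.3 in the mutant samples, against 796.0, 632.1, 612.1 and 660.6 in the wild type samples (log2 change -1.26, limma adjusted p = 0.0211), while its other probe set had a log2 change of 0.04 (adjusted p = 0.963). Mutant samples 3 and 4 stood apart from the other 6 arrays. They correlated at 0.969 with each other, at 0.738 to 0.774 with mutant samples 1 and 2 and at 0.747 to 0.758 with wild type samples, over the log2 signals of the tested probe sets. The summed signal of granulosa and cumulus marker genes, 15 measured of 17 listed, was 17990.1 to 21624.3 in mutant samples 3 and 4, 1663.7 to 2713.3 in mutant samples 1 and 2 and 2556.1 to 3370.7 in wild type samples, and none of the 15 was at 0 on all arrays. Of the 10 markers tested, 5 passed as higher and 0 as lower in mutant samples 3 and 4, beside 18.3% and 23.2% of all probe sets tested. Hsd3b1 and Vim were bright enough for the test only through mutant samples 3 and 4, so their difference is a description with no test. Most of the sum in mutant samples 3 and 4 came from Hsd3b1, Vim, Inha and Inhba. Their signals there were 2364.2 to 8835.3, against 3.7 to 115.2 in wild type samples. In the same 2 mutant samples, Star, Foxl2, Fshr, Nr5a1 and Tnfaip6 each lay above their own wild type range, with signals of 107.1 to 189.8. Cyp11a1, Amh, Amhr2 and Nr5a2 lay within the wild type range and Ptx3 lay below it. Has2 had 17.0 and 26.9, against 12.9 to 26.3 in wild type samples. Of 8 measured markers of the oocyte and 2-cell embryo, none was under the background bound (the 95th percentile of 27 Bacillus control probe sets on an array) on all arrays of any of these 3 sets. Their summed signal was 15310.8 to 16480.7 in mutant samples 3 and 4, 25059.0 to 29200.5 in mutant samples 1 and 2 and 13082.5 to 16647.1 in wild type samples, so that mutant samples 1 and 2 were apart in this sum. Of these 8, all tested, 2 passed as higher and 0 as lower with all 4 mutant samples, beside 2.98% and 3.58% of all probe sets tested. With mutant samples 1 and 2, 4 passed as higher and 1 as lower, beside 3.6% and 3.11% of all. With mutant samples 3 and 4, 3 passed as higher and 2 as lower, beside 18.3% and 23.2% of all. The ratio of 3' to 5' actin signal, a sign of RNA length, was 4.88 and 7.04 in mutant samples 4 and 3, 12.9 and 15.05 in mutant samples 1 and 2 and 16.3 to 21.15 in wild type samples. The same ratio for Gapdh was 6.94 and 7.33 in mutant samples 3 and 4, 6.63 and 6.75 in mutant samples 1 and 2 and 8.58 to 10.1 in wild type samples, so it was lower in all 4 mutant samples. The 18 probe sets of bacterial and phage hybridisation controls, which are spiked into each sample, read on geometric average 1.40 and 0.711 times the wild type level in mutant samples 3 and 4, 6.05 and 3.80 times in mutant samples 1 and 2 and 0.696 to 1.31 times in wild type samples. The background bound was 37.7 in mutant sample 2 and 14.7 to 31.0 on the other arrays. The counts for each proteasome part, and the values of most genes, are therefore given for all 4 mutant samples and for the pairs 1 and 2, and 3 and 4, each against the same 4 wild type samples. The part of these array differences in the results was not tested. In pooled embryos, fewer cells and less RNA per cell cannot be told apart.

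With all 4 mutant samples against the 4 wild type samples, 1 of the 45 proteasome genes bright enough to be tested passed the adjusted p threshold of 0.05. That gene was Psmc3ip, which was lower in the mutant. None passed as higher, against 2.98% of all 22518 probe sets tested, and the 1 lower gene stands beside 3.58% of all. No subunit passed. At an unadjusted p under 0.05 limma counted 9 of the 45 genes, beside 25.5% of all probe sets tested. The log2 change was positive for 31 genes and negative for 14, with a median of 0.36 over the proteasome genes and -0.05 over all probe sets. Groups did not overlap for 2 genes that were higher (Psmb10 and Psme3ip1, of which Psmb10 was bright enough for the test only through the mutant samples) and 4 that were lower (Psmc3ip, Psmd5, Psmd11 and Psmf1). Among all probe sets tested, 7.83% lay entirely above and 9.67% entirely below the wild type.

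Each pair of mutant samples was also set against the 4 wild type samples. In mutant samples 1 and 2 against wild type, 0 genes passed as higher (3.6% of all probe sets did) and 1 gene, Psma3, passed as lower (3.11% of all), with 12 genes at an unadjusted p under 0.05 (25.5% of all) and a median log2 change of -0.35. In mutant samples 3 and 4 against wild type, 30 of 45 genes passed as higher, 6 as lower and 9 did not pass. The 30 include Psmb10, which was bright enough for the test only through the mutant samples. For that pair 18.3% of all probe sets passed as higher and 23.2% as lower. The median log2 change there was 0.98 over the proteasome genes and -0.20 over all probe sets. Mutant sample 2 had the lowest signal of all 8 arrays for 24 of the 45 genes, 53.3%, and for 15.8% of all probe sets tested. Leaving out mutant sample 2 made 6 genes pass as higher (Psma4, Psma7, Psmb1, Psmb7, Psmd2 and Psme1), beside 6.27% of all probe sets. Leaving out mutant sample 1 made 2 pass (Psma7 and Psme3ip1), beside 5.6% of all. With array weights, 31 passed as higher and 6 as lower, beside 22.6% and 28.4% of all.

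**Figure D1:**
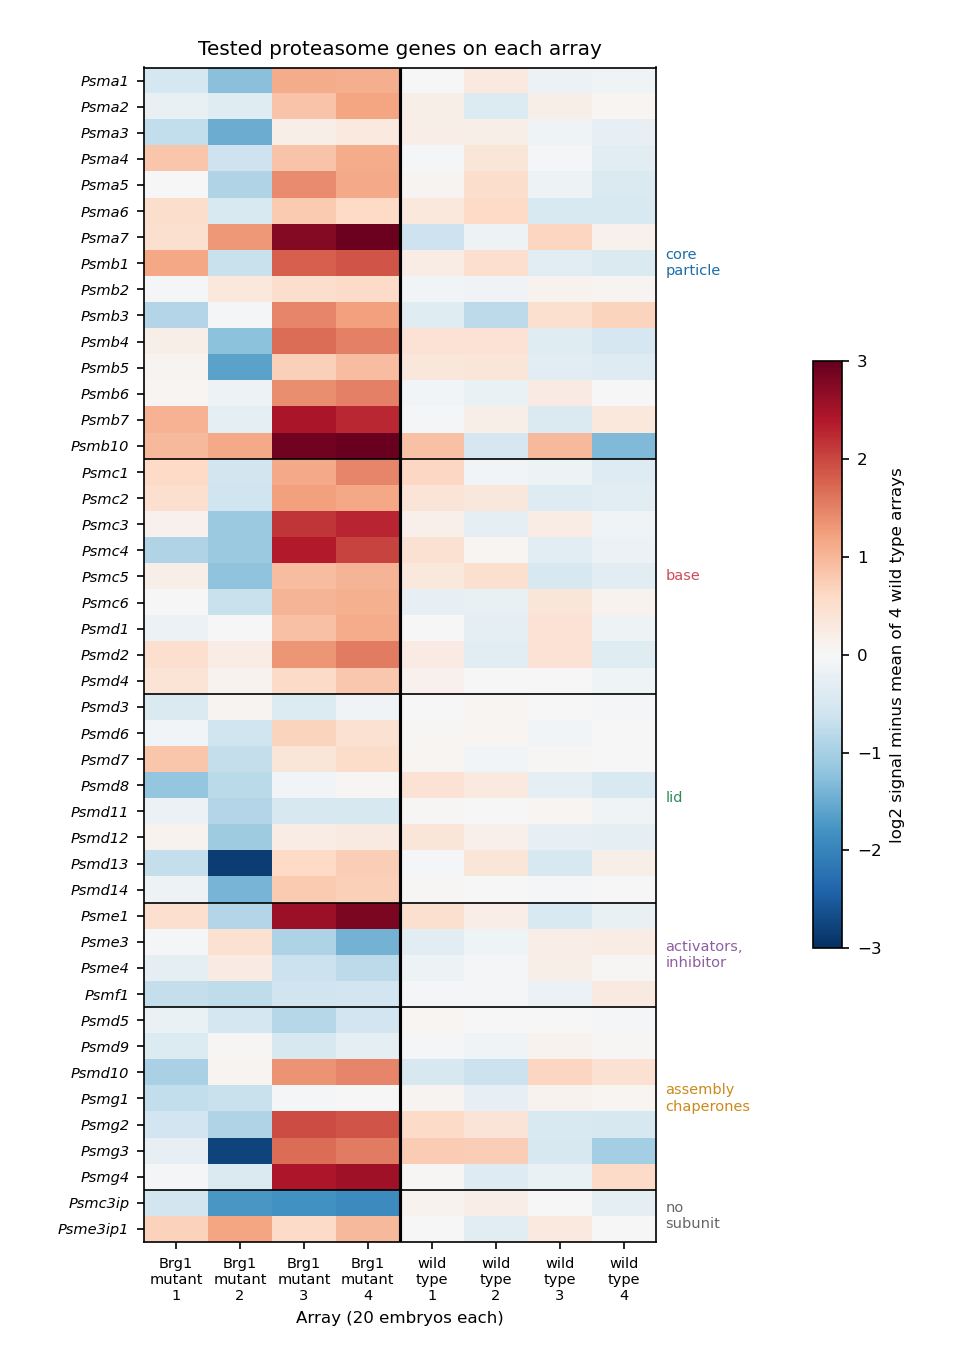
Log2 signal of each of the 45 tested proteasome genes (rows, grouped by part) on each of the 8 arrays (columns, mutant at the left), shown as colour relative to the mean of the 4 wild type arrays, with the scale ending at 3 in each direction. Most core and base rows are red in mutant samples 3 and 4, mutant sample 2 is blue in many rows, and Psmc3ip is blue in all 4 mutant samples.

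Promoter sequence was looked up in the RefSeq annotation of GRCm38.p6, as a window of 250 bases before to 50 bases after each gene's start, and 41 of the 49 genes had an entry. Psma8, Psmb1, Psmb2, Psmb7, Psmc3, Psmd3, Psmd7 and Psmg2 had none there. The letters CCGGAAG, the core of the binding motif of ETS factors, were in the window of 16 of the 41 genes on either strand (39.0%), against 18.6% of the other tested genes and 9.93% of all genes in the table. By part, they were in 1 of 15 core windows, 5 of 8 base windows, 4 of 6 lid windows, 2 of 4 windows of activators and the inhibitor and 2 of 6 chaperone windows. The letters TGACNNNGC, shared by antioxidant response elements, were in 14.6% of the proteasome windows, 16.7% of those of other tested genes and 14.0% of those of all genes. The CCAAT box was in 39.0%, against 42.8% and 41.1%, and the GC box GGGCGG in 56.1%, against 66.0% and 38.2%, of the same sets. Each motif was searched on both strands, and matches of different motifs may overlap. Below are the 120 bases before the start, 5′ to 3′ along the gene's own strand with CCGGAAG or its reverse complement in capitals, of the gene that passed with all 4 mutant samples (Psmc3ip, chr11:101095436-101095555, minus strand), a core gene (Psma7, chr2:180042465-180042584, minus strand), a base gene (Psmd2, chr16:20651532-20651651, plus strand) and a lid gene (Psmd11, chr11:80428495-80428614, plus strand).
Psmc3ip: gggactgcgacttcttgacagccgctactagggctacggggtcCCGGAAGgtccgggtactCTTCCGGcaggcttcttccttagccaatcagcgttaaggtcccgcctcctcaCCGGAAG
Psma7: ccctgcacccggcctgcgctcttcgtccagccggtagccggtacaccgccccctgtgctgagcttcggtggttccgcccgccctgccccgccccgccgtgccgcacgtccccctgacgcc
Psmd2: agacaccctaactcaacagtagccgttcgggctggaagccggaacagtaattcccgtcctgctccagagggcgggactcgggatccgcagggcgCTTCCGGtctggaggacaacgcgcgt
Psmd11: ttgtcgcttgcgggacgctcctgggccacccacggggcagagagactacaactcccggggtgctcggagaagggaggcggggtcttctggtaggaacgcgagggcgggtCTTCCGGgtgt
Psmc3ip had 3 matches within these bases, Psmd2 and Psmd11 had 1 each and Psma7 had none. A match of letters is a description of the sequence and not a measured site.

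Most core particle genes were higher in mutant samples 3 and 4 and scattered around the wild type level in mutant samples 1 and 2. Of the 19 genes 15 were tested, and with all 4 mutant samples 0 passed in either direction, although 14 of 15 log2 changes were positive (median 0.45). In mutant samples 3 and 4 against wild type, 13 of the 15 passed as higher and 0 as lower, with a median of 1.28. Over all probe sets tested, 18.3% passed as higher and 23.2% as lower for that pair. In mutant samples 1 and 2 the median was -0.04, with 7 positive and 8 negative changes, and only Psma3 passed, as lower. The beta subunits had a median of 1.52 in mutant samples 3 and 4, where 8 of 8 passed, and the alpha subunits 1.03, where 5 of 7 passed. The 2 core genes that did not pass there were Psma3 and Psma6. Psma6 had 0.69 there (limma adjusted p = 0.0949). Of its 2 other tested probe sets, 1 passed as higher there (1.355, adjusted p = 0.0129) and the other did not (-0.0037, adjusted p = 0.994). The core and beta counts and medians include Psmb10, which was bright enough for the test only through the mutant samples.

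Psma7, an alpha ring subunit, had signals of 142.9, 252.9, 694.1 and 787.1 in the mutant samples, against 67.3, 92.8, 160.6 and 112.0 in the wild type samples. Of the mutant signals 3 lay above all wild type signals and mutant sample 1 lay within their range. With all 4 mutant samples the log2 change of 1.86 ± 0.53 (SE) missed the threshold (limma adjusted p = 0.0595), as did that of 1.65 on another probe set (adjusted p = 0.103). It was 7.18-fold higher in mutant samples 3 and 4 (adjusted p = 0.000195), and in mutant samples 1 and 2 the log2 change was 0.88 (adjusted p = 0.184). Psma3, another alpha subunit, went the other way in mutant samples 1 and 2. Its signals were 1255.7, 749.6, 2360.2 and 2590.4 in the mutant samples, against 2407.5, 2351.0, 1924.3 and 1776.4 in the wild type samples. Mutant samples 1 and 2 lay below all wild type samples, 2.16-fold lower on average (adjusted p = 0.0360), and samples 3 and 4 overlapped with them (log2 change 0.24, adjusted p = 0.308).

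The 3 catalytic genes each passed as higher in mutant samples 3 and 4 and not with all 4 mutant samples. Psmb7, the trypsin-like subunit, had signals of 381.3, 152.4, 1010.5 and 879.1 in the mutant samples, against 179.3, 206.0, 135.1 and 228.6 in the wild type samples. Only mutant sample 2 lay within the wild type range. Its log2 change was 1.37 ± 0.53 (SE; adjusted p = 0.137) with all 4 mutant samples, and 2.36 with mutant samples 3 and 4 (adjusted p = 0.000122). Psmb6, the caspase-like subunit, had 392.6, 336.9, 979.9 and 1068.1 in the mutant samples, against 356.1, 328.2, 446.7 and 376.7 in the wild type samples. Mutant samples 1 and 2 lay within the wild type range, and samples 3 and 4 were 2.73-fold higher (adjusted p = 0.000441). Psmb5, the chymotrypsin-like subunit, had 774.4, 240.5, 1196.0 and 1384.4 in the mutant samples, against 927.6, 931.5, 582.7 and 556.8 in the wild type samples. Its change was 0.03 with all 4 samples (adjusted p = 0.976, 95% confidence interval -1.06 to 1.13), 0.82 in mutant samples 3 and 4 (adjusted p = 0.0302) and -0.75 in samples 1 and 2 (adjusted p = 0.316). The sign with all 4 samples was negative after centring on the array median or the 75th percentile, and without any 1 of mutant samples 3 and 4 or wild type samples 3 and 4.

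Psmb1, a beta subunit without a protease site, had signals of 413.6, 116.8, 645.0 and 688.0 in the mutant samples, against 218.2, 264.9, 150.7 and 138.3 in the wild type samples. Mutant sample 2 was the lowest of all arrays and the other 3 mutant samples were the highest. Its log2 change was 1.04 ± 0.52 (SE; adjusted p = 0.237), and without mutant sample 2 it was 1.61 (adjusted p = 0.0174). Its other tested probe set had a log2 change of -0.25 (adjusted p = 0.760), and the mean over its probe sets had 0.39 (adjusted p = 0.625). Psma4 gave the same order, with 310.0 in mutant sample 2 and 842.9 to 1026.0 in the other 3, against 384.8 to 616.8 in the wild type samples. Psma1, Psma2, Psma5, Psmb2, Psmb3 and Psmb4 had log2 changes of 0.10 to 0.54 with all 4 samples, none passing, and each passed as higher in mutant samples 3 and 4. The smallest of those was Psmb2 (0.55, adjusted p = 0.0381) and the largest Psmb4 (1.59, adjusted p = 0.00237).

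Psmb8, Psmb9 and Psmb10 encode the beta subunits of the immunoproteasome, a form of the core known from immune cells and interferon-treated cells. Psmb10 had signals of 39.6, 44.8, 150.1 and 159.1 in the mutant samples, against 37.0, 14.2, 39.4 and 8.1 in the wild type samples. The groups did not overlap, but mutant sample 1 and wild type sample 3 were almost equal, and 2 wild type signals were under the background bound. Its mean log2 signal was 6.33 in the mutant and 4.34 in the wild type, where the filter on dim probe sets asked for 5.25 over all arrays. Psmb10 thus passed that filter through the mutant samples, so its difference is a description with no test, and it is 1 of the 30 genes counted as higher in mutant samples 3 and 4. Psmb8 was too dim to be tested, with 16.4, 4.8, 73.7 and 93.2 in the mutant samples, against 6.0, 3.2, 19.8 and 5.1 in the wild type samples. All 4 wild type signals were under the bound. With the bound in place of those signals, mutant samples 3 and 4 were on average at least 3.42-fold higher than the wild type samples. Psmb9, also not tested, had 55.4, 30.9, 17.3 and 30.8 in the mutant samples, against 24.9, 8.1, 5.3 and 15.8 in the wild type samples, all 4 of the wild type signals and that of mutant sample 2 under the bound. Of the markers of blood and leukocytes, cells known to hold the immunoproteasome, 7 of 8 were measured and none was at 0 on all arrays. Their summed signal was 868.8 to 914.0 in mutant samples 3 and 4, 475.6 to 556.4 in mutant samples 1 and 2 and 377.9 to 486.3 in wild type samples. Much of the higher sum lay in Cd52. It had 360.4 and 453.1 in mutant samples 3 and 4, against 19.7 to 48.2 in wild type samples. Lyz2 was also higher there (188.8 and 192.0, against 83.8 to 125.9), while Cd74 was lower (43.7 and 40.6, against 57.7 to 90.8). Hba-a1 and Tyrobp lay within the wild type range. Of the 5 markers tested, 2 passed as higher and 0 as lower in mutant samples 3 and 4, beside 18.3% and 23.2% of all probe sets tested. In either direction 0 passed in samples 1 and 2 (3.6% higher and 3.11% lower of all) and 0 with all 4 (2.98% and 3.58%). Cd52 was bright enough for the test only through mutant samples 3 and 4, so its difference is a description with no test. The part of these markers in the immunoproteasome signals was not tested. Psma8, a subunit of the testis proteasome, and Psmb11, of the thymus proteasome, were not tested and were under the bound on all 4 wild type arrays and on 2 and 3 mutant arrays. They ranged from 4.9 to 37.2 in the mutant samples and from 3.5 to 30.1 in the wild type samples.

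**Figure D2:**
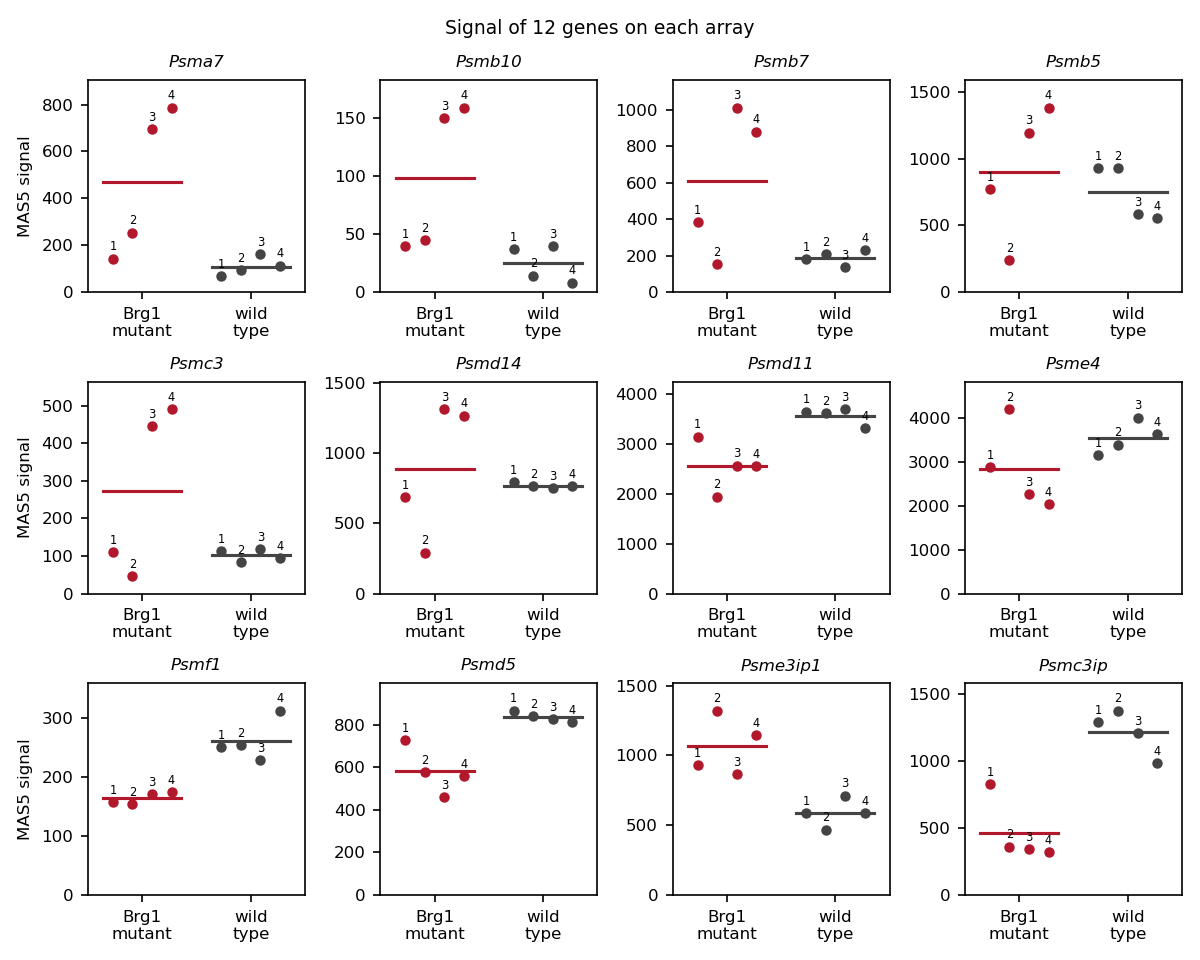
MAS5 signal (linear axis from 0) of 12 proteasome genes on each array, with mutant samples at the left and wild type samples at the right of each panel, sample numbers above the points and a line at the mean of 4. Samples 3 and 4 are the highest mutant points for Psma7, Psmb10 and Psmc3, while the 4 mutant points of Psmd11, Psmf1, Psmd5 and Psmc3ip all lie below the wild type points.

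The base genes, too, were higher in mutant samples 3 and 4. All 9 of them were tested, 0 passed with all 4 mutant samples, and all 9 log2 changes were positive, from 0.23 (Psmc5) to 0.90 (Psmd2), with a median of 0.58. In mutant samples 3 and 4 against wild type all 9 passed as higher, beside 18.3% of all probe sets tested. The base median there was 1.20, on the arrays where the granulosa marker sum was also highest. In mutant samples 1 and 2 none passed (median -0.08). The 6 ATPases, Psmc1 to Psmc6, were lowest on mutant sample 2 among the 8 arrays, in 6 of 6 cases. The 3 subunits without ATPase activity were not, in any case. Psmc3 had signals of 110.9, 47.1, 445.5 and 491.3 in the mutant samples, against 113.3, 83.8, 118.3 and 94.0 in the wild type samples. Its log2 change was 0.86 ± 0.66 (SE; adjusted p = 0.454) with all 4 mutant samples and 2.21 with samples 3 and 4 (adjusted p = 0.000121). Psmc4 had 131.1, 114.8, 1282.9 and 1010.2 in the mutant samples, against 336.5, 256.9, 194.0 and 219.7 in the wild type samples. Both mutant pairs lay outside the wild type range, on opposite sides, with log2 changes of 2.21 in samples 3 and 4 (adjusted p = 0.000195) and -1.01 in samples 1 and 2 (adjusted p = 0.0643). Its other probe set had 91.5, 101.1, 350.3 and 323.5 in the mutant samples, against 84.2, 129.1, 82.9 and 61.4 in the wild type samples. There mutant samples 1 and 2 lay within the wild type range (0.16, adjusted p = 0.803), samples 3 and 4 were higher (1.97, adjusted p = 0.000893), and all 4 together had 1.06 (adjusted p = 0.194).

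Psmd2, the large scaffold subunit of the base that binds ubiquitin receptors, had signals of 366.5, 300.7, 646.9 and 758.1 in the mutant samples, against 305.4, 209.8, 349.2 and 201.7 in the wild type samples. Mutant sample 2 lay within the wild type range and the other 3 mutant samples above it. The log2 change of Psmd2 was 0.90 ± 0.34 (SE; adjusted p = 0.135), 1.43 in samples 3 and 4 (adjusted p = 0.00253) and 0.36 in samples 1 and 2 (adjusted p = 0.489). Psmd4, a ubiquitin receptor, had 1002.4, 816.9, 1127.4 and 1314.1 in the mutant samples, against 823.3, 763.4, 750.6 and 693.7 in the wild type samples. Mutant sample 2 again lay within the wild type range (log2 change 0.47, adjusted p = 0.210).

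The lid had fewer genes past the threshold and a smaller median in mutant samples 3 and 4 than the core or the base. All 8 lid genes were tested, none passed with all 4 mutant samples, and 6 of 8 log2 changes were negative, with a median of -0.17. In mutant samples 3 and 4 against wild type, 2 passed as higher (Psmd6 and Psmd14), 1 as lower (Psmd11) and 5 did not pass. These few calls stand beside 18.3% higher and 23.2% lower of all probe sets tested. The lid median there was 0.35, against 1.28 in the core and 1.20 in the base. In mutant samples 1 and 2 none passed, 7 of 8 changes were negative and the median was -0.50. The difference between the parts was not tested. Psmd14, the deubiquitinating subunit, had signals of 686.2, 291.4, 1311.7 and 1265.8 in the mutant samples, against 790.9, 764.4, 748.9 and 762.8 in the wild type samples. The wild type samples differed little, and the mutant samples lay on both sides of them, 2 above and 2 below. The log2 change was -0.01 with all 4 mutant samples (adjusted p = 0.989, 95% confidence interval -0.96 to 0.93), 0.75 with samples 3 and 4 (adjusted p = 0.00471) and -0.78 with samples 1 and 2 (adjusted p = 0.167). Its sign was positive after quantile normalization, and without mutant sample 1, mutant sample 2 or wild type sample 1.

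Psmd11, a scaffold subunit of the lid, was read by 8 probe sets. The brightest had signals of 3141.6, 1941.9, 2560.9 and 2551.2 in the mutant samples, against 3642.9, 3607.6, 3694.1 and 3315.9 in the wild type samples. All 4 mutant samples lay below all wild type samples, with a log2 change of -0.50 ± 0.22 (SE; adjusted p = 0.191), and samples 3 and 4 passed as lower (-0.48, adjusted p = 0.0204). Of its 4 other tested probe sets, 3 had negative changes (-0.68, -0.47 and -0.17) and 1 a positive change (0.05), none passing with all 4 mutant samples. In samples 3 and 4 the one with -0.68 passed as lower (-0.59, limma adjusted p = 0.0367). The others did not pass there (-0.92, -0.0056 and 0.076, in the same order). Psmd13 had the most negative change of the lid in mutant samples 1 and 2 (-1.78, adjusted p = 0.0851), with signals of 45.5, 10.3, 112.4 and 124.9 in the mutant samples, against 71.2, 96.0, 53.5 and 83.7 in the wild type samples. Mutant sample 2 was under its background bound. In samples 3 and 4 the change of Psmd13 was 0.67 (limma adjusted p = 0.0899). Its other tested probe set, also dim, passed as higher there (1.49, adjusted p = 0.0182) and had -1.34 in samples 1 and 2 (adjusted p = 0.279). Psmd3, Psmd7, Psmd8 and Psmd12 did not pass in any of the 3 comparisons.

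**Figure D3:**
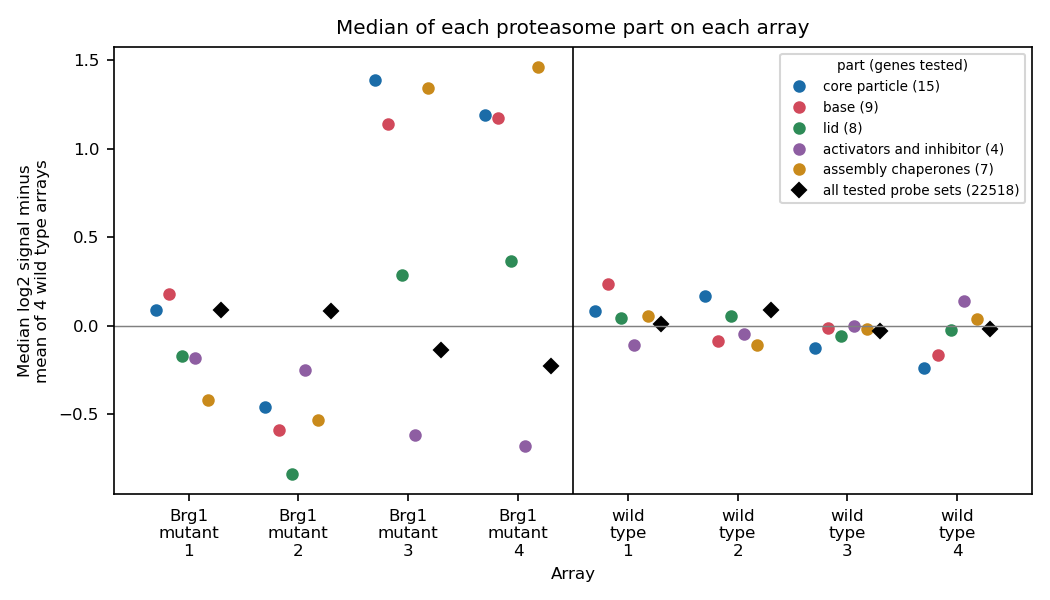
Median over the tested genes of each proteasome part (coloured points) and over all 22518 tested probe sets (black diamonds) of the log2 signal relative to the mean of the 4 wild type arrays, for each array, mutant at the left. Core, base and chaperone medians lie between 1.14 and 1.46 in mutant samples 3 and 4, the lid at 0.28 and 0.36, and the activators and inhibitor at -0.62 and -0.68.

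Activators and the inhibitor moved in both directions in mutant samples 3 and 4. All 4 genes were tested, and 0 passed with all 4 mutant samples. In mutant samples 3 and 4, 1 passed as higher (Psme1) and 3 as lower (Psme3, Psme4 and Psmf1), with none passing in samples 1 and 2. The shares over all probe sets tested were 18.3% higher and 23.2% lower in mutant samples 3 and 4. Psme1, the alpha chain of the PA28 cap that interferon induces, had signals of 68.7, 26.1, 283.6 and 342.7 in the mutant samples, against 67.6, 55.0, 35.2 and 41.3 in the wild type samples. The log2 change was 1.25 ± 0.72 (SE; adjusted p = 0.309) with all 4 samples and 2.69 with samples 3 and 4 (adjusted p = 0.000204). Its partner chain is read by a probe set that names both Psme2 and Psme2b, which the rule leaves out. That probe set had 106.1, 100.4, 753.0 and 779.5 in the mutant samples, against 130.2, 129.8, 45.1 and 39.1 in the wild type samples. The change was 1.93 with all 4 mutant samples (adjusted p = 0.141), 3.37 with samples 3 and 4 (adjusted p = 0.000839) and 0.48 with samples 1 and 2 (adjusted p = 0.602).

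Psme3, which forms the nuclear PA28 gamma cap, was read by 2 tested probe sets that differed in mutant samples 1 and 2. The brighter one had signals of 608.7, 878.3, 334.9 and 238.5 in the mutant samples, against 514.9, 588.3, 730.5 and 751.0 in the wild type samples (log2 change -0.49, adjusted p = 0.464). The other had 252.8, 128.5, 130.1 and 137.4 in the mutant samples, against 483.5, 399.9, 321.5 and 392.0 in the wild type samples. On this second probe set the groups did not overlap and the gene was 2.54-fold lower in the mutant (log2 change -1.35 ± 0.28 (SE), adjusted p = 0.0244). It was the 1 probe set to pass among the 30 tested ones that did not represent their gene. In mutant samples 1 and 2 the brighter probe set lay within or above the wild type range (0.20, limma adjusted p = 0.682). The second probe set lay below its wild type range there (-1.13, adjusted p = 0.0618). Both passed as lower in mutant samples 3 and 4 (-1.18, adjusted p = 0.00364, and -1.56, adjusted p = 0.00056).

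Psme4, the PA200 cap, which is known to degrade acetylated histones in the male germ line, had signals of 2885.7, 4213.1, 2271.0 and 2040.9 in the mutant samples, against 3164.4, 3398.4, 4015.1 and 3636.3 in the wild type samples. Mutant sample 2 was the highest and samples 3 and 4 were the lowest of the 8 arrays. The log2 change was -0.37 ± 0.27 (SE; adjusted p = 0.427), and another probe set with groups that did not overlap had -0.84 (adjusted p = 0.0681). One more had -0.44 (adjusted p = 0.348). The 2 dim ones that follow ran the other way. The tested one had 28.3, 43.3, 72.5 and 56.5 in the mutant samples, against 25.2, 41.2, 35.1 and 28.5 in the wild type samples, and passed the filter on dim probe sets through the mutant samples. The untested one had 28.0, 49.8, 42.3 and 47.7 in the mutant samples, against 16.6, 15.6, 17.6 and 4.2 in the wild type samples, all 4 of them under the bound, with groups that did not overlap. Psmf1, the inhibitor PI31, had 157.7, 153.8, 171.7 and 175.1 in the mutant samples, against 250.6, 254.4, 228.8 and 312.9 in the wild type samples. The mutant samples were close to each other and all below the wild type samples, with a log2 change of -0.66 ± 0.22 (SE; adjusted p = 0.0914), -0.58 in samples 3 and 4 (adjusted p = 0.0499) and -0.74 in samples 1 and 2 (adjusted p = 0.0995). Its 3 other probe sets had positive changes of 0.13 to 0.70, none passing, and the mean over its 4 probe sets had a change of 0.20.

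Assembly chaperones likewise moved in both directions in mutant samples 3 and 4, on the arrays with the high granulosa marker sum. Of the 7, none passed with all 4 mutant samples (median 0.05). With mutant samples 3 and 4, 4 passed as higher (Psmg2, Psmg3, Psmg4 and Psmd10), 1 as lower (Psmd5) and 2 did not pass, with a median of 1.40. For that pair 18.3% of all probe sets tested passed as higher and 23.2% as lower. In mutant samples 1 and 2 none passed and all 7 changes were negative (median -0.44). Psmg4, part of a chaperone pair for the alpha ring, had signals of 57.4, 43.7, 318.9 and 345.0 in the mutant samples, against 60.8, 45.2, 51.7 and 88.2 in the wild type samples. Its log2 change was 1.12 ± 0.66 (SE; adjusted p = 0.320) with all 4 samples and 2.48 with samples 3 and 4 (adjusted p = 0.000252). Psmg3, its partner, had 63.8, 10.9, 242.2 and 221.5 in the mutant samples, against 128.6, 124.8, 53.8 and 37.3 in the wild type samples. The wild type samples lay far apart here, with 2 above and 2 below mutant sample 1, and the log2 change was 0.05 (adjusted p = 0.979). Psmd5, a chaperone of the base, had 729.0, 578.0, 460.3 and 558.4 in the mutant samples, against 866.3, 840.9, 825.9 and 811.8 in the wild type samples. All 4 mutant samples lay below all wild type samples (log2 change -0.54 ± 0.22 (SE), adjusted p = 0.146), and samples 3 and 4 passed as lower (-0.72, adjusted p = 0.00874). Psmd9 and Psmg1 did not pass in any of the 3 comparisons.

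**Figure D4:**
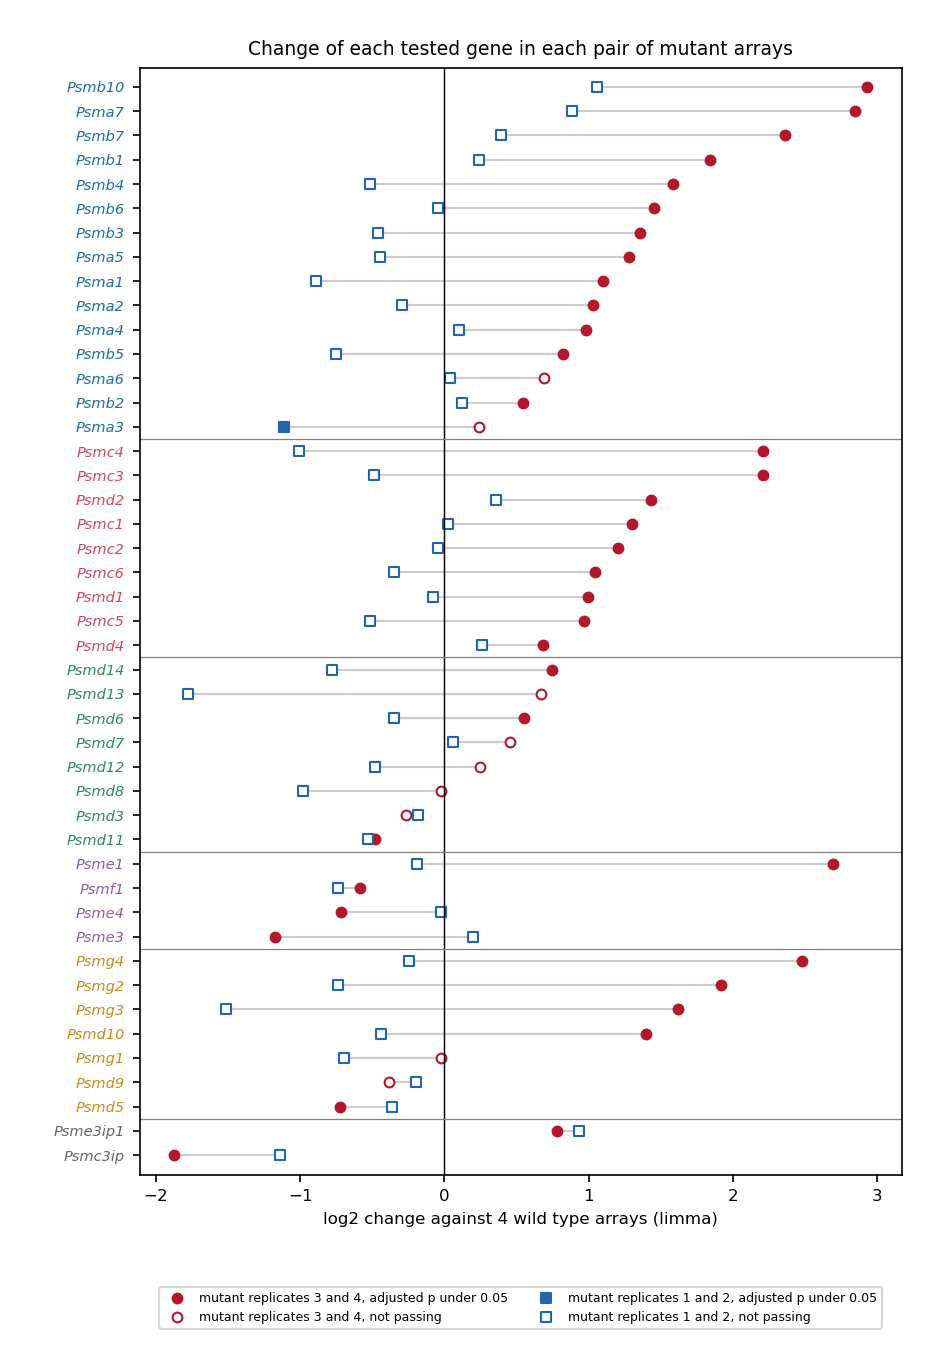
Limma log2 change against the same 4 wild type arrays of each tested proteasome gene in mutant samples 3 and 4 (circles) and in mutant samples 1 and 2 (squares), filled where the adjusted p was under 0.05, grouped by part. All 9 base circles and 13 of 15 core circles are filled on the positive side, and the only filled square is Psma3 on the negative side. The 13 core circles include Psmb10, which was bright enough for the test only through the mutant samples.

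Psmc3ip (HOP2), known as a factor of strand exchange in meiotic recombination and named for its binding to the ATPase Psmc3, was the 1 gene to pass with all 4 mutant samples. Its signals were 827.0, 361.3, 339.5 and 318.4 in the mutant samples, against 1289.8, 1374.6, 1208.2 and 985.0 in the wild type samples. Mutant sample 1 was intermediate and the other 3 mutant samples were close together, all below the wild type samples. The means were 461.5 ± 244.3 in the mutant and 1214 ± 167 in the wild type (SD, n = 4 each), a log2 change of -1.51 ± 0.32 (SE) or 2.84-fold lower (limma adjusted p = 0.0253). It was 3.67-fold lower in mutant samples 3 and 4 (adjusted p = 0.000108) and 2.21-fold lower in samples 1 and 2, which missed the threshold (adjusted p = 0.0651). The call was lost without any 1 of the 4 wild type samples and without mutant sample 3 or mutant sample 4 (adjusted p = 0.0663 to 0.0875). It was also lost with the replicate numbers as a block. Its second probe set, which remains when probe sets that may cross-hybridise are left out, had 380.8, 121.9, 167.0 and 216.8 in the mutant samples, against 432.0, 461.7, 407.1 and 311.7 in the wild type samples, and did not pass (log2 change -0.98, adjusted p = 0.107).

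Psme3ip1, which encodes a partner of the PA28 gamma cap, had signals of 931.6, 1321.0, 868.2 and 1147.2 in the mutant samples, against 584.6, 468.4, 710.7 and 585.3 in the wild type samples. All 4 mutant samples lay above all wild type samples, with means of 1067 ± 207 in the mutant and 587.2 ± 99.0 in the wild type (SD, n = 4 each). This is a log2 change of 0.86 ± 0.23 (SE; adjusted p = 0.0543). It was 0.78 in samples 3 and 4 (adjusted p = 0.0181) and 0.93 in samples 1 and 2 (adjusted p = 0.0603). It passed after quantile normalization (adjusted p = 0.0391), with only the upper 30% of probe sets tested (adjusted p = 0.0426) and without mutant sample 1 (adjusted p = 0.0454).

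Of 30 other genes of the ubiquitin-proteasome pathway on a list of cofactors, shuttle receptors and regulators, 21 were measured and tested. None passed with all 4 mutant samples (median log2 change -0.05, with 4 of 21 at an unadjusted p under 0.05, beside 25.5% of all probe sets tested). With mutant samples 3 and 4, 7 passed as higher, 5 as lower and 9 did not pass, beside 18.3% higher and 23.2% lower of all probe sets. With mutant samples 1 and 2, 0 passed in either direction (median -0.10), beside 3.6% higher and 3.11% lower of all probe sets. At an unadjusted p under 0.05 limma counted 5 of the 21 for that pair, beside 25.5% of all. The 4 with the smallest adjusted p were Ubqln4, Pomp, Ngly1 and Ufd1. Ubqln4, a shuttle that carries ubiquitinated proteins to the proteasome, had 328.4, 364.7, 411.2 and 402.1 in the mutant samples, against 252.2, 223.4, 268.9 and 232.1 in the wild type samples. The groups did not overlap (log2 change 0.62 ± 0.21 (SE), adjusted p = 0.0960), with 0.74 in samples 3 and 4 (adjusted p = 0.0128) and 0.51 in samples 1 and 2 (adjusted p = 0.212). Pomp, the chaperone that completes the core particle, had 308.2, 294.1, 668.5 and 653.7 in the mutant samples, against 238.1, 243.1, 275.0 and 266.8 in the wild type samples. All mutant samples were above all wild type samples and samples 3 and 4 stood well above samples 1 and 2 (log2 change 0.81 ± 0.32 (SE), adjusted p = 0.143). Samples 3 and 4 passed as higher (1.37, adjusted p = 0.000450) and samples 1 and 2 did not pass (0.24, adjusted p = 0.556). Ngly1, the glycanase that acts on the proteasome gene activator Nfe2l1, had a log2 change of -0.83 (adjusted p = 0.144), with -0.53 in samples 3 and 4 (adjusted p = 0.144) and -1.13 in samples 1 and 2 (adjusted p = 0.0863). Ufd1, which works with the segregase Vcp, had 1.07 (adjusted p = 0.160), with 1.76 in samples 3 and 4 (adjusted p = 0.00460) and 0.39 in samples 1 and 2 (adjusted p = 0.593), but 0.084 averaged over its probe sets (adjusted p = 0.943). Nfe2l1 itself, the factor known to raise proteasome genes when proteasome activity falls, had 351.5, 478.5, 261.1 and 259.4 in the mutant samples, against 236.6, 281.9, 348.3 and 333.1 in the wild type samples (log2 change 0.14, adjusted p = 0.793). Samples 1 and 2 lay above all wild type samples (0.47, adjusted p = 0.310), and samples 3 and 4 lay within their range (-0.19, adjusted p = 0.518).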

How the data were processed

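Total RNA of 20 embryos per sample was measured in 4 Brg1 mutant and 4 wild type samples. The deposited values are array intensities, 1 MAS5 signal per probe set, per the submitters' processing notes, with the version of MAS5 not stated there. The labels call the samples biological replicates and name no separate collections, so p-values cover only the spread among these 8 samples. Precision is limited by the number of arrays. A floor of 1 was put under the signals before log2, with no further scaling. After 64 control probe sets were set aside, the upper 50% of 45037 probe sets by mean log2 signal over all arrays (22518, a mean log2 signal of at least 5.25) were tested. Groups were compared with limma 3.58.1 in R 4.3.3 (two-sided lmFit and eBayes fits with a variance trend, Benjamini-Hochberg over all tested probe sets, threshold 0.05), which was checked on simulated data. Each mutant pair was fitted in the same way, with 2 arrays against the 4 wild type arrays. Dim probe sets carry uncertain changes. The background bound of an array was the 95th percentile of its 27 Bacillus control probe sets, and folds given as "at least" use it.

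The platform annotation gave 1 symbol for 34945 probe sets, several for 932 and none for 9160. The members, the lists and the tests were chosen with earlier results of these data known. Full values were given for members past the threshold, the 10 with the largest change, those whose groups did not overlap or that passed in mutant samples 1 and 2 alone, the catalytic and immunoproteasome genes and Psmd14. Of the 21 other pathway genes measured, of 30 listed, the 4 with the smallest adjusted p were chosen, and the listed genes not measured were not analysed here. Psma4, Psma6, Psmc4, Psmd4, Psmd13, Psme3, Psme4, Psmg3, Psme2 and Nfe2l1 were added after their values were seen. Alternatives changed the scaling, the filter, the pseudocount, the variance trend, array weights, the replicate block, the choice of probe set and the samples.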

Additional observations from a re-analysis of the deposited data

Results flagged for a closer look

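In 5 of 108 groups of 4 samples, 1 sample lay far from the other 3 (by Dixon's gap), and chance flags about 1 in 20 groups. Psma4, an alpha ring subunit, had 310.0 in mutant sample 2, against 842.9 to 1026.0 in the other mutant samples. Psmd12, a lid subunit, had 373.5 in mutant sample 2, against 847.2 to 948.8 in the other mutant samples. Psmc3ip had 827.0 in mutant sample 1, against 318.4 to 361.3 in the other mutant samples. Ngly1, the glycanase, had 445.1 in mutant sample 1, against 899.8 to 1002.1 in the other mutant samples. Psma8, which was under the background bound on all wild type arrays, had 30.1 in wild type sample 2, against 3.5 to 4.5 in the other wild type samples.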

How the results depend on the processing

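With all 4 mutant samples, the count of proteasome genes higher (0 as reported) was 1 after quantile normalization, 2 with the upper 30% of probe sets, 31 with array weights and 30 without mutant samples 1 and 2. The count lower (1 as reported) was 6 with array weights and 6 without mutant samples 1 and 2, and 0 with the replicate block or without probe sets that may cross-hybridise. Over all probe sets, 671 higher and 807 lower became 421 and 1557 after median centring, 5099 and 6387 with array weights, 10 and 5 with the replicate block, and 4126 and 5232 without mutant samples 1 and 2. Other pathway genes had 0 higher and 0 lower as reported, 6 and 5 with array weights, and 7 and 5 without mutant samples 1 and 2. Median centring moved the median of all probe sets by -0.18 and the 75th percentile by -0.14. The share of calls that were higher was 45.4%, but 21.3% with median centring, 31.0% with the 75th percentile and 66.7% with the block.

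Deviations of same-numbered samples from their group means correlated at 0.0242, -0.177, -0.129 and -0.0869 for numbers 1 to 4, so no pairing was seen. Mutant deviations are shaped by the split between samples 1 and 2 and samples 3 and 4, so these correlations cannot exclude a pairing. Wild type signals of some genes were also split by number, 1 and 2 against 3 and 4. Psmb4 had 1132.1 and 1145.0 against 657.2 and 596.8, and Psmb3 had 192.1 and 142.6 against 345.6 and 388.3. Whether this split matches that of the mutant samples was not tested. With the replicate block Psmc3ip had an adjusted p of 0.0704.

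Median log2 changes moved as follows. Median centring gave 0.19 over all members, 0.40 in the base, -0.35 in the lid, -0.61 in activators and inhibitor and -0.12 in chaperones. The 75th percentile gave 0.22 over all members, -0.32 in the lid, -0.57 in activators and inhibitor and -0.092 in chaperones. Quantile normalization gave -0.082 in the lid and -0.18 in chaperones, the upper 30% filter -0.12 and -0.36, and a pseudocount in place of the floor gave 0.18 in chaperones. Array weights gave 0.86 over all members, 1.04 in the core, 1.28 in the base, 0.35 in the lid, -0.67 in activators and inhibitor and 1.0 in chaperones. Leaving out probe sets that may cross-hybridise gave -0.066 in the lid and -0.58 in activators and inhibitor, and averaging all probe sets of a gene gave -0.036 in activators and inhibitor. Without mutant samples 3 and 4 the medians were -0.35 over all members, -0.042 in the core, -0.080 in the base, -0.50 in the lid, -0.10 in activators and inhibitor and -0.44 in chaperones. Without mutant samples 1 and 2 they were 0.98, 1.28, 1.20, 0.35, -0.65 and 1.40 in the same order.

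Signs turned for Psmb5 (-0.14 with median centring, -0.11 with the 75th percentile), Psmd14 (0.12 with quantile normalization, 0.66 with array weights), Psma3 (0.22 with array weights) and Psmf1 (0.20 averaged over its probe sets). Without mutant samples 3 and 4, Psmb5 was -0.75, Psmb6 -0.042, Psmc3 -0.49, Psme1 -0.19 and Psmg4 -0.25. Without mutant samples 1 and 2, Psma3 was 0.24 and Psmd14 0.75. The causes were not tested.

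Leaving out 1 sample at a time gave 40 to 1411 probe sets higher and 33 to 1515 lower, 0 to 6 members higher, 0 to 1 lower and 0 other pathway genes. The medians ranged from 0.12 to 0.61 over all members, 0.22 to 0.85 in the core, 0.36 to 0.97 in the base, -0.26 to 0.21 in the lid, -0.60 to -0.20 in activators and inhibitor and -0.29 to 0.61 in chaperones. Psmb5 ranged from -0.26 to 0.58 and Psmd14 from -0.28 to 0.45.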
